A study of Mus musculus with 24 samples.

Results

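The genes described here are the cytochrome P450 genes of families 1 to 4 in mouse brain, heart and liver. They were chosen by symbol alone. Every gene was taken that had a probe with 1 annotated symbol starting with Cyp1, Cyp2, Cyp3 or Cyp4, a subfamily letter and a number. This gave 57 of 16110 named genes, measured by 76 probes. Each gene was read from its probe with the highest mean over the 24 arrays, and 12 of the 57 genes had over 1 probe. All mice were 5-week-old female C57BL/6. Treated mice received an aqueous extract of Ephedra herba, a stimulant plant used in traditional medicine, by mouth at 50 mg/kg, and tissue was taken at 1, 6, 12 or 24 hours or at 3, 5 or 10 days. Untreated mice were the controls. In each tissue the untreated mice and each of the 7 times had 1 array, so no tissue and time was replicated. Pooling, repeat dosing, the sharing of mice between tissues and the clock time are not stated in the labels used here.

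Cytochrome P450 enzymes of these families are heme proteins of the endoplasmic reticulum that insert an oxygen atom into their substrates. In hepatocytes they oxidise drugs, plant compounds, steroids, bile acids and fatty acids. Several are induced through nuclear receptors or the Ah receptor, and in rodents some are expressed mainly in one sex under the control of growth hormone. Others act outside the liver on fatty acids and eicosanoids.

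Promoter stretches are shown for 5 of these genes, to set genes with high, low and brain-high values beside one another. They come from RefSeq on GRCm38.p6, are the 150 bases before the annotated start, and are written 5′ to 3′ on the gene's own strand. Capitals mark the letters CAAAGTCC, one of 3 spellings searched on both strands for the binding motif of HNF4, a nuclear receptor of liver; the others were CAAAGTTCA and CAAAGGTCA. Cyp2a5 (chr7:26835189-26835338, plus strand), Cyp2c70 (chr19:40187287-40187436, minus strand) and Cyp3a11 (chr5:145879855-145880004, minus strand) were high in liver, as described below. Cyp3a41a (chr5:145720137-145720286, minus strand) was below the array median on every array, and Cyp2j9 (chr4:96591486-96591635, minus strand) was highest in brain.
Cyp2a5: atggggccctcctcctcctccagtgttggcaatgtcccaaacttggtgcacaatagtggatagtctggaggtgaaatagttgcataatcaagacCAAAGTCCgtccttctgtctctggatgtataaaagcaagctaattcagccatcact
Cyp2c70: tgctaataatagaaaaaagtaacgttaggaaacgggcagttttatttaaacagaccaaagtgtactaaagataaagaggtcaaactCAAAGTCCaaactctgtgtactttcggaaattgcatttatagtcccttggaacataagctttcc
Cyp3a11: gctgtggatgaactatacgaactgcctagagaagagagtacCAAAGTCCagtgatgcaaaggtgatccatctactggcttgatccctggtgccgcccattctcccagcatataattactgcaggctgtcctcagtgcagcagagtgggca
Cyp3a41a: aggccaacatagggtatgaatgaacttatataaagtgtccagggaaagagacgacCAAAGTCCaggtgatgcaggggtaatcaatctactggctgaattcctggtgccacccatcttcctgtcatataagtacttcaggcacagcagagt
Cyp2j9: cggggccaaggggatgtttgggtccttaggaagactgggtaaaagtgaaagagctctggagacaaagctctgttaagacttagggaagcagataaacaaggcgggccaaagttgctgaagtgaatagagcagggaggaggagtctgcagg

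Counted from the start, the capitals begin at base -56 for Cyp2a5, -64 for Cyp2c70, -109 for Cyp3a11 and -95 for Cyp3a41a. None of the 3 spellings lay in the Cyp2j9 window. Promoter windows of 300 bases, from 250 before to 50 after the start, were found for 47 of the 57 genes, and 10 of these held at least 1 of the spellings. Among all 32851 promoter windows the share was 2.26%. The matches included Cyp3a11, Cyp3a16, Cyp3a25 and Cyp3a41a on chromosome 5 and Cyp2c40, Cyp2c65, Cyp2c67 and Cyp2c70 on chromosome 19. Windows of such related genes are not independent. The letters were in 5 of the 27 windows of genes raised in liver, defined below. They were also in 4 of the 12 windows of genes that never exceeded the array median there. Related Cyp2c and Cyp3a genes were among the matches in both groups, and whether the letters go with the level in liver was not tested. The letters TTATGTAA and TTACGTAA, bound by the circadian factors Dbp, Tef and Hlf, were in 0 of the 47 windows and in 1.06% of all windows. These are matches of letters and do not show binding.

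Values are the deposited log2 intensities, centred so that 0 is about the median of an array. The liver arrays of 6, 12 and 24 hours stood apart before any comparison was made. Their highest values were 10.8, 10.6 and 11.2, against 7.84 to 9.42 on the other 5 liver arrays, while the spread of the middle of the distribution was about equal on all 8. The upper tail was thus wider on these 3 arrays as deposited. For this reason liver values are given as deposited and also after quantile normalization, which gives all 8 liver arrays 1 distribution and holds the brightest genes near fixed levels. Heart arrays differed in their content of hepatocyte transcripts, and the liver arrays of 1 and 24 hours carried the heart transcript Myl2, at 3.17 and 2.00 against -0.55 to -0.05 on the other 6. Each tissue's own markers were high on average. The mean of 5 cardiomyocyte genes was 7.63 to 8.84 in heart, and that of 5 neuronal and glial genes 3.87 to 4.24 in brain. That of 9 hepatocyte genes was 5.03 to 7.02 in liver. Of the 5 neuronal and glial genes 4 were above 0 on each brain array. Of the 5 cardiomyocyte genes 4 were above 0 on the untreated and 10 day brain arrays, with highest values of 2.93 and 2.79. On the other brain arrays 0 to 3 were. Among the hepatocyte markers Fabp1 and Tat were near or below the median in liver, at -0.62 to -0.21 and -0.28 to 0.20.

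Of the 57 genes, 35 were above the array median on all 8 liver arrays and 14 on none. A gene was tested if it exceeded the array median on 4 or more of the 24 arrays, which left 39 of the 57 among 10934 genes tested. The other 18 were Cyp1a1, Cyp2b19, Cyp2c38, Cyp2c40, Cyp2c65, Cyp2d12, Cyp2d34, Cyp2j11, Cyp2j13, Cyp2j5, Cyp2j6, Cyp2r1, Cyp2u1, Cyp3a16, Cyp3a41a, Cyp3a44, Cyp4f39 and Cyp4x1. A gene expressed in liver alone passed this filter only through its liver arrays, so the counts of tested genes below describe 39 genes and not all 57.

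P450 genes of all 4 families included genes far higher in liver than in brain or heart. Fitted without the filter, 54 of the 57 genes were called higher in liver than in brain and 2 lower, against 49.0% and 30.4% of all 16110 genes, and 51 were called higher and 4 lower than in heart, against 39.9% and 27.2%. The median difference of the 57 genes was 2.09 against brain and 1.83 against heart on the log2 scale, with 0.22 and 0.10 for all genes. The filter raises these values, since 8 of the 39 tested genes were above the median on no brain or heart array and passed through liver alone. Of the 39, 36 were called higher in liver than in brain and 2 lower, against 28.9% and 43.8% of all genes tested (limma, Benjamini-Hochberg adjusted p under 0.05, 8 arrays a tissue with time as a block). Against heart, 34 were called higher and 4 lower, against 23.9% and 38.9% of all genes. The medians were then 5.64 and 5.22, with -0.16 and -0.12 for all genes tested. Called higher and at least 2-fold so in both comparisons were 32 of the 57 genes, against 5.72% of all named genes, with untested genes counted as not raised. The deposited values carry no detection call, and 28 of the 39 tested genes were below the median on all 8 brain arrays and 8 on all 8 heart arrays. Whether those low values stand above background is not known. Differences taken against them, with their errors, describe the deposited scale and may understate or overstate the true difference. The 5th percentile of all values was -0.47 to -0.43 in liver, -0.94 to -0.91 in brain and -0.72 to -0.70 in heart. A gene near the low end on every array can thus read higher in liver. Cyp1a1, above the median on no array, had means of -0.36 in liver, -0.91 in brain and -0.60 in heart. The part of this offset in the calls was not tested. An alternative without the 6, 12 and 24 hour arrays was chosen after seeing the data. Of the 39 genes, 35 were then higher in liver than in brain and 2 lower, against 3130 and 5344 of all 10934 genes. Compared with heart, 34 were higher and 4 lower, against 2242 and 4855 of all genes. As nothing says which arrays came from separate animals, p-values here cover the spread among arrays, which may be technical.

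Among the enzymes with drug and steroid substrates, Cyp2e1, which oxidises ethanol and acetaminophen, had a lowest, median and highest value of 7.82, 8.71 and 10.92 on the liver arrays. The same 3 values were -0.83, -0.58 and 0.87 on the brain arrays, and 0.98, 2.07 and 4.80 on the heart arrays. Its liver value exceeded that in brain by 9.44 ± 0.41 (SE, n = 8; limma adjusted p = 4.99e-09) and that in heart by 6.57 ± 0.63 (limma adjusted p = 9.32e-06). The ranges of the 3 tissues did not overlap, although the highest brain value came close to the lowest heart value. Cyp3a11, the main inducible Cyp3a of mouse liver, ran from 6.86 through a median of 7.46 to 9.97 in liver, from -1.0 through -0.73 to -0.37 in brain and from -0.60 through -0.29 to 2.06 in heart. The difference was 8.86 ± 0.39 against brain and 8.03 ± 0.55 against heart (limma adjusted p = 5.23e-09 and 7.3e-07). Every liver value of Cyp3a11 lay above every brain and heart value, and its brain values were all below the array median.

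Cyp2a5, the coumarin hydroxylase of mouse liver, was 8.47 ± 0.37 higher in liver than in brain and 7.60 ± 0.58 higher than in heart. Cyp2c70, which makes muricholic acids in mouse bile, was 9.21 ± 0.37 and 8.03 ± 0.58 higher. For both, no liver value fell below 6.77 and no heart or brain value exceeded 2.78. Cyp1a2, the Ah receptor target of liver, was 7.73 ± 0.26 and 7.14 ± 0.42 higher, while Cyp1a1, the other Cyp1a gene, stayed between -0.46 and -0.25 on all liver arrays. Limma adjusted p for these tested genes was at most 1.67e-06.

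By subfamily, the genes raised at least 2-fold in liver over both tissues were 1 of 3 in Cyp1, 6 of 7 in Cyp2a and Cyp2b, 7 of 10 in Cyp2c, 5 of 7 in Cyp2d, 3 of 11 in the rest of Cyp2, 3 of 6 in Cyp3a, 3 of 4 in Cyp4a and 4 of 9 in the rest of Cyp4, untested genes included. Further examples, all below the median on the brain arrays, were Cyp2a12 (8.13 ± 0.33 over brain), Cyp2d10 (8.44 ± 0.31), Cyp2c37 (8.36 ± 0.16), Cyp2c50 (8.23 ± 0.14), Cyp2b13 (7.61 ± 0.23), Cyp2b9 (7.57 ± 0.21), Cyp2f2 (7.94 ± 0.29), which oxidises naphthalene, and Cyp4a14 (7.72 ± 0.21), a fatty acid hydroxylase induced through PPAR alpha. The smallest differences among the 32 were 1.34 ± 0.27 over brain and 1.19 ± 0.27 over heart, both for Cyp4a12a. Near-identical relatives within Cyp2a, Cyp2b, Cyp2c, Cyp3a and Cyp4a may share a probe, and probe sequences were not used here, so values within these subfamilies are uncertain as to which copy they measure.

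**Figure D1:**
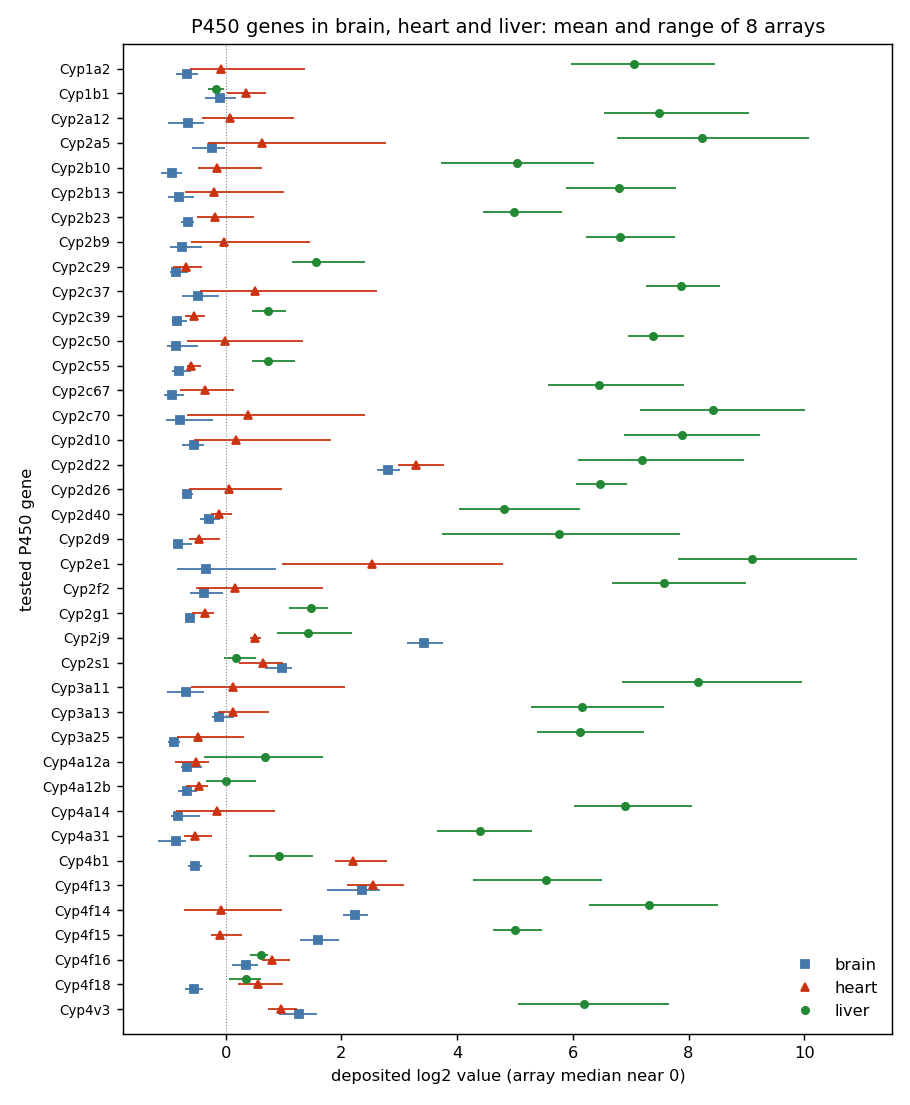
Mean (symbol) and lowest-to-highest range (line) of the deposited log2 value over 8 arrays in brain (squares), heart (triangles) and liver (circles) for the 39 tested P450 genes; 0 is about the array median. Most liver ranges lie well to the right of both other tissues, and Cyp2j9, Cyp4b1, Cyp2s1, Cyp1b1 and Cyp4f16 are among the exceptions.

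Probes of 1 gene did not always read the same. The 4 probes of Cyp2a5 had liver means of 8.23, 7.25, 6.81 and 2.59. Those of Cyp2c37 had 7.88, 7.89 and 0.13, those of Cyp2c50 7.38 and 0.04, and those of Cyp3a13 6.17, 5.48 and 2.05. Which transcripts the low probes detect was not tested.

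The genes not highest in liver were few. Cyp2j9, an arachidonic acid oxygenase known from mouse brain, had a lowest, median and highest value of 3.14, 3.45 and 3.77 on the brain arrays, 0.42, 0.49 and 0.62 on the heart arrays and 0.89, 1.30 and 2.18 on the liver arrays. The 3 ranges were separate, with brain highest and heart lowest. Liver was lower than brain by -2.0 ± 0.10 and higher than heart by 0.92 ± 0.12 (limma adjusted p = 1.95e-08 and 0.000112). Cyp4b1, which activates furan toxins in lung, had values of 1.88, 2.08 and 2.79 in heart, 0.40, 0.91 and 1.52 in liver and -0.66, -0.51 and -0.41 in brain. Liver was lower than heart by -1.28 ± 0.14 and higher than brain by 1.44 ± 0.13 (limma adjusted p = 2.68e-05 and 2.32e-06), and again the ranges did not overlap. Cyp2s1, of epithelia, was lower in liver than in brain (-0.79 ± 0.10) and heart (-0.46 ± 0.10). Cyp1b1, the extrahepatic Cyp1, was lower in liver than in heart (-0.52 ± 0.10) and did not pass the test against brain (-0.06 ± 0.09, limma adjusted p = 0.581). Cyp4f16 was lower in liver than in heart by -0.19 ± 0.07 (limma adjusted p = 0.0455). This call was marginal: 2 dimmer probes of Cyp4f16 had means of -0.22 and 0.06 in liver and -0.24 and 0.05 in heart.

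Several genes high in liver were also present elsewhere. Cyp2d22 was above the median on all 8 brain arrays, at 2.62 to 3.01, and on all 8 heart arrays, at 2.98 to 3.77, with liver at 6.10 to 8.97. The leukotriene hydroxylase genes Cyp4f14 and Cyp4f15 were at 2.02 to 2.45 and 1.28 to 1.96 in brain, and heart lay below brain by -2.32 ± 0.16 and -1.70 ± 0.07 (limma adjusted p = 3.85e-08 and 2.14e-10). Cyp4f13 did not separate brain from heart (0.20 ± 0.12, limma adjusted p = 0.145). Of the 39 genes, 30 were called higher in heart than in brain and 5 lower, against 39.9% and 39.9% of all genes. Of those 30 differences 26 were under 1 on the log2 scale, with a median of 0.60, and 26 of the 30 genes were below the median on all brain arrays. The 5th percentile of all values was -0.94 to -0.91 in brain and -0.72 to -0.70 in heart, and its part in the calls was not tested. The 12 and 24 hour and 3 and 5 day arrays were also fitted alone. They were chosen after seeing the data because their heart arrays held the least hepatocyte transcript. Of the 39 genes 14 were then called higher and 4 lower, against 3384 and 3834 of all 10934 genes tested.

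In liver, no P450 gene differed between treated and untreated mice in the test. Of the 39 genes 0 were called in either direction, against 0.0% of all genes, and 0 had an unadjusted p under 0.05, against 1.23% of all genes (limma, 7 treated arrays against 1, the lone untreated array assumed to vary like the treated ones). As deposited, 32 of the 39 lay higher in the mean of the treated arrays, with a median log2 difference of 0.47, as did 51.9% of all genes, with a median of 0.01. After quantile normalization within liver 23 lay higher, with 45.6% of all genes, and the median was 0.03. Without the 6, 12 and 24 hour arrays 19 lay higher, with 35.1% of all genes, and the median was -0.02. In whole tissue, a change in the share of hepatocytes and a change in RNA per hepatocyte cannot be told apart.

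Cyp2b10, the classical target of the constitutive androstane receptor (CAR), had the largest difference among the probes chosen for each gene. Its values on the untreated, 1, 6, 12 and 24 hour and 3, 5 and 10 day liver arrays were 3.73, 3.99, 5.18, 6.36, 6.03, 5.18, 4.99 and 4.78 as deposited. Quantile-normalized values were 3.87, 4.40, 4.56, 5.68, 5.21, 5.92, 5.15 and 5.33. On both scales the untreated array was the lowest and the 1 hour array the next. The treated arrays averaged 1.49 ± 0.74 above the untreated one as deposited (SE; limma adjusted p = 1) and 1.31 ± 0.49 after quantile normalization (limma unadjusted p = 0.0256, adjusted p = 0.999). Without the 6, 12 and 24 hour arrays the difference was 1.00.

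The differences of Cyp2e1, Cyp3a11, Cyp2a5 and Cyp2c70 moved most with the scale, and all 4 were smaller after quantile normalization. Cyp2e1 read 8.17, 8.06, 10.31, 10.17, 10.92, 8.09, 9.25 and 7.82 as deposited in the same order, and 9.06, 9.19, 8.92, 8.98, 9.08, 9.17, 9.21 and 9.24 after quantile normalization. Its high values at 6, 12 and 24 hours were thus seen as deposited only, and the difference was 1.06 ± 1.17 and 0.05 on the 2 scales. Cyp3a11 read 7.25, 7.32, 9.97, 9.36, 9.83, 7.15, 7.59 and 6.86 as deposited, and 7.89, 8.36, 8.62, 8.31, 8.22, 8.13, 7.83 and 7.69 after quantile normalization. Its quantile-normalized values were highest at 6 hours and lowest at 10 days. Its difference was 1.05 ± 1.26 as deposited, 0.28 after quantile normalization and -0.02 without the 6, 12 and 24 hour arrays. Cyp2a5 gave 1.19 ± 1.11 and 0.45, and Cyp2c70 gave 0.79 ± 1.17 and 0.01, as deposited and quantile-normalized. The Cyp2a5 value depended on the probe: the 2 others with high liver means gave 1.96 and 2.52 as deposited, above the 1.49 of Cyp2b10, and the mean of all 4 probes gave 1.7.

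Genes below the untreated level included fatty acid hydroxylases. Cyp4a14 read 7.05, 6.78, 8.05, 7.15, 6.90, 6.03, 6.93 and 6.30 as deposited, and 7.65, 7.56, 7.05, 6.42, 5.92, 6.82, 7.09 and 7.09 after quantile normalization. On the second scale every treated array lay below the untreated one, with the lowest at 24 hours. The mean difference was -0.18 ± 0.61 as deposited and -0.80 ± 0.48 after quantile normalization (limma unadjusted p = 0.129). Cyp4a31, of the same subfamily, averaged -0.12 ± 0.59 and -0.37, and Cyp4f15 averaged -0.10 ± 0.30 and -0.46. None of the 3 passed the test on either scale.

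**Figure D2:**
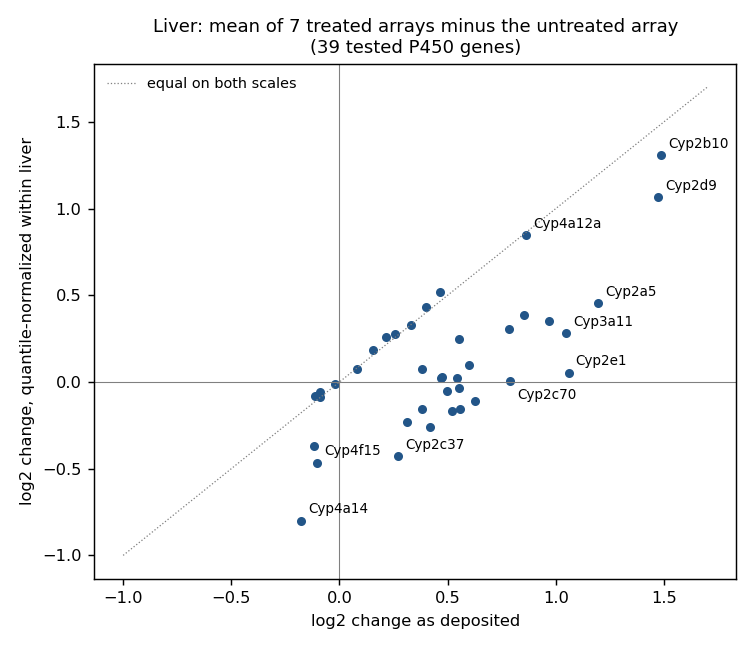
Each point is 1 of the 39 tested P450 genes: the mean of the 7 treated liver arrays minus the untreated liver array on the log2 scale, as deposited (x axis) and after quantile normalization within liver (y axis). The dotted line marks equal changes; Cyp2e1 moves from 1.06 to 0.05, while Cyp2b10 stays at 1.49 and 1.31 and Cyp4a12a at 0.86 and 0.85.

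Single arrays show where the deposited rises sit in time. Each compares a single pair of arrays, without a test. Members at least 2-fold above the untreated liver array, and above the array median, numbered 0, 18, 20, 20, 2, 6 and 1 of the 39 at 1, 6, 12 and 24 hours and 3, 5 and 10 days, against 0.54%, 12.2%, 8.68%, 11.8%, 0.732%, 1.39% and 0.0915% of all genes. Cyp4a14 at 3 days was the 1 gene at least 2-fold lower, where 0.658% of all genes were. On the other 6 arrays 0 P450 genes were lower, against 0.11%, 1.1%, 0.979%, 1.23%, 1.44% and 0.238% of all genes in order of time. After quantile normalization the counts of higher genes were 0, 2, 3, 3, 2, 5 and 1, against 0.741%, 2.42%, 1.85%, 1.69%, 1.34%, 1.39% and 0.238% of all genes. Lower genes then numbered 0, 2, 1, 3, 0, 0 and 0, against 0.0823%, 2.43%, 1.87%, 2.25%, 0.384%, 1.43% and 0.219%. The lower ones were Cyp2b13 and Cyp4f15 at 6 hours, Cyp4a14 at 12 hours, and Cyp2c37, Cyp4a14 and Cyp4a31 at 24 hours.

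The genes raised in liver and other genes, of hepatocytes and of some other cells, were high on the same deposited arrays. The median of the 32 genes on the untreated, 1, 6, 12 and 24 hour and 3, 5 and 10 day liver arrays was 6.01, 5.84, 7.41, 7.01, 7.43, 5.91, 6.58 and 5.90 as deposited. That of the 889 other genes at least 2-fold higher in liver than in both tissues was 4.23, 3.95, 4.88, 4.90, 4.99, 3.98, 4.23 and 4.0. Both medians were highest at 6, 12 and 24 hours. So were summed levels of markers of some other liver cells. At those times 5 Kupffer cell and macrophage markers summed to 9.86 to 10.7, against 3.74 to 8.55 at the others. For 4 stellate cell and fibroblast markers the sums were 14.9 to 16.5 and 10.8 to 12.3. Endothelial markers overlapped, at 5.10 to 5.55 and 3.22 to 5.44. Cholangiocyte markers were lowest at those times, at -0.53 to -0.50 against -0.29 to 0.16. Of the Kupffer cell markers Cd5l was below the median on all 8 liver arrays, and 3 or 4 of the 5 were above it on each. The part of other cells in the P450 values was not tested. After quantile normalization the medians lay between 6.28 and 6.75 for the P450 genes and between 4.31 and 4.49 for the others, with no peak at those times.

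Higher than the untreated array on all 7 treated liver arrays were 4 of the 39 genes as deposited (Cyp2b10, Cyp2c50, Cyp2d26 and Cyp3a25), against 5.27% of all genes, and 0 were lower on all 7, against 11.0%. After quantile normalization 3 were higher (Cyp2b10, Cyp2c29 and Cyp3a13; 6.56% of all genes) and 2 lower (Cyp4a14 and Cyp4f15; 11.0%). Cyp2b10 is the 1 gene in both sets of higher genes. Since all 7 values are set against the same untreated array, they are not independent.

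**Figure D3:**
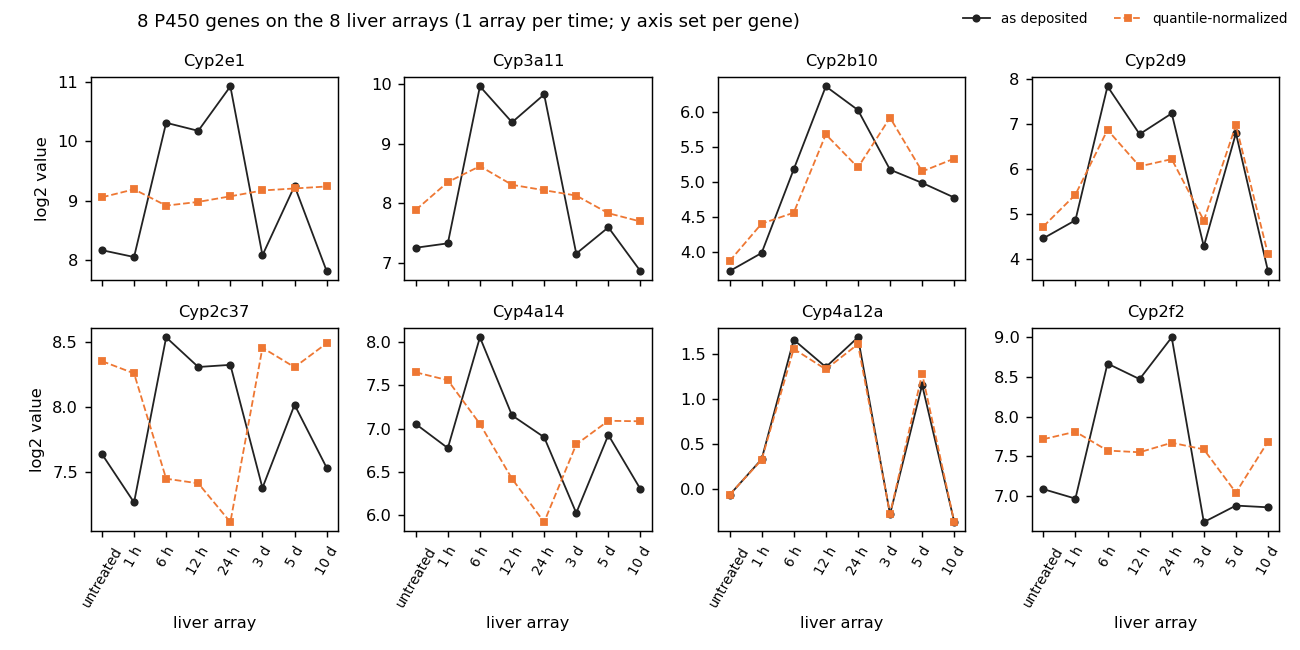
Log2 values of 8 P450 genes on the 8 liver arrays, in order of time and not to scale on the x axis, as deposited (black, solid) and quantile-normalized within liver (orange, dashed); there is 1 array per time and each panel has its own y axis. Cyp2e1 and Cyp2f2 peak at 6 to 24 hours as deposited alone, whereas Cyp2d9 and Cyp4a12a are high at 6, 12 and 24 hours and 5 days on both scales.

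Genes known to be male-biased in mouse liver varied between the liver arrays of these females on both scales. Cyp2d9, a testosterone hydroxylase, read 4.47, 4.87, 7.85, 6.78, 7.24, 4.29, 6.81 and 3.74 as deposited and 4.73, 5.44, 6.88, 6.07, 6.23, 4.86, 6.98 and 4.11 after quantile normalization. Cyp4a12a, an arachidonic acid hydroxylase, read -0.07, 0.33, 1.66, 1.36, 1.69, -0.29, 1.16 and -0.37 as deposited, and its quantile-normalized values differed from these by little. Cyp4a12b ran from -0.33 to 0.53. All 3 were highest on the 6, 12 and 24 hour and 5 day arrays on both scales, although Cyp4a12b at 5 days reached only 0.04. Their mean treated difference was 1.47 ± 1.49, 0.86 ± 0.83 and 0.33 ± 0.34 as deposited, and none passed the test.

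Female-biased genes followed the same arrays as deposited and not after quantile normalization. As deposited, Cyp2b9 read 6.49, 6.24, 7.16, 7.61, 7.76, 6.31, 6.69 and 6.31, and Cyp2b13 read 6.52, 5.88, 6.89, 7.53, 7.78, 6.22, 7.34 and 6.20. Both were highest at 6, 12 and 24 hours and 5 days. Cyp2b9 read 6.98, 6.99, 6.22, 6.80, 6.64, 7.19, 6.86 and 7.11 after quantile normalization, and Cyp2b13 read 7.02, 6.59, 5.96, 6.73, 6.66, 7.10, 7.55 and 6.94. Both were lowest at 6 hours on that scale. Of the other female-biased genes, Cyp2c40, Cyp3a16, Cyp3a41a and Cyp3a44 were near or below the median on every liver array, between -0.55 and 0.17. Cyp2a4 was not analysed here.

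Other receptor targets were tested in small numbers. Lying above the untreated array were 51.9% of all genes as deposited and 45.6% after quantile normalization. Of 8 CAR targets, 8 lay above it as deposited and 4 after quantile normalization, and 0 were called. The 3 tested pregnane X receptor targets (Cyp3a11, Cyp3a13 and Cyp3a25) lay above it on both scales and 0 were called. The genes of hepatocytes near the central vein shared Cyp2a5, Cyp2c29, Cyp2c37 and Cyp2c50 with the CAR targets, so the 2 counts are not separate. Of the central vein genes, 6 of 6 lay above the untreated array as deposited and 3 of 6 after quantile normalization. Quantile-normalized Cyp2c37, one of these, read 8.36, 8.26, 7.45, 7.41, 7.11, 8.46, 8.31 and 8.49, with the 6, 12 and 24 hour arrays lowest, whereas its deposited values at those 3 times, 8.54, 8.31 and 8.33, were the highest of the 8.

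Neither trend over time passed its test. For the slope on log2 hours over the 7 treated arrays, 0 of the 39 genes were called, against 0.0% of all genes, and 0 had an unadjusted p under 0.05 in limma, against 1.22% of all genes. Without the 1 hour array 0 were called, but 22 had an unadjusted p under 0.05, against 34.5% of all genes, the lowest adjusted p of any gene was 0.0534, and the median slope of the 39 went from -0.03 to -0.22. The steepest slopes as deposited were 0.06 ± 0.11 per doubling of time for Cyp2b10 and -0.18 ± 0.18 for Cyp3a11. After quantile normalization 5 genes had an unadjusted p under 0.05: Cyp1a2 (0.13 ± 0.04), Cyp2a5 (0.14 ± 0.04), Cyp2b10 (0.13 ± 0.06) and Cyp2b13 (0.12 ± 0.05) upward and Cyp3a11 (-0.10 ± 0.03) downward, and 0 were called.

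The 6 and 12 hour arrays were also set against the whole days, 24 hours and 3, 5 and 10 days, which would share a clock time if all mice were dosed at one. Of the 39 genes 0 were called, against 0.0% of all genes, and 4 had an unadjusted p under 0.05 in limma, against 9.07%. These were Cyp4a31 (1.07 ± 0.27), Cyp2b23 (0.79 ± 0.22), Cyp2d40 (1.32 ± 0.36) and Cyp4a14 (1.06 ± 0.37). The call depended on the 24 hour array. Without it 13 genes were called higher, against 18.1% of all genes, among them Cyp3a11 (2.46 ± 0.28), Cyp2c70 (2.11 ± 0.30), Cyp2e1 (1.86 ± 0.42) and Cyp2f2 (1.77 ± 0.13). With quantile normalization and without that array, chosen after seeing the data, 0 were called higher and 3 lower, against 0.887% and 1.28% of all genes: Cyp2c50 (-1.13 ± 0.16), Cyp2c37 (-0.99 ± 0.12) and Cyp4f15 (-0.77 ± 0.12).

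In heart several P450 genes raised in liver differed widely between arrays. Cyp2e1 read 4.80, 4.12, 3.07, 2.17, 1.39, 0.98, 1.71 and 1.97 on the untreated, 1, 6, 12 and 24 hour and 3, 5 and 10 day heart arrays. Cyp2a5 read 1.05, 2.78, 1.21, 0.20, 0.02, -0.30, -0.09 and 0.23, and Cyp3a11 read 0.93, 2.06, 0.41, -0.49, -0.54, -0.60, -0.60 and -0.10. All 3 were highest on the untreated, 1 hour and 6 hour arrays.

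Hepatocyte markers moved the same way. The mean of the 9 markers was 2.03, 2.68 and 1.45 on the untreated, 1 hour and 6 hour heart arrays, 1.00 at 10 days and -0.22 to 0.21 on the other 4. Markers above 0 numbered 6, 6 and 6 of 9 on the first 3 arrays, 4 at 10 days and 2 to 4 on the rest, and Alb, Fabp1 and Tat were below 0 on all 8. Apoa1, a plasma apolipoprotein made by hepatocytes, read 4.26, 4.64, 3.57, 0.85, 0.26, -0.32, 0.13 and 2.27. White fat markers were also highest on the untreated heart array, with Adipoq at 4.28 there and 0.22 to 1.85 on the other 7. The part of either cell type in the heart values of Cyp2e1 was not tested.

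The test of treated against untreated heart called 0 of the 39 genes, against 0.0% of all genes higher and 0.0457% lower, and 2 had an unadjusted p under 0.05 in limma, against 7.94%. These were Cyp2e1 (-2.60 ± 0.92) and Cyp4f18 (-0.48 ± 0.21). Without the 1 hour array, the one highest in hepatocyte markers, 0 were called and 17 had an unadjusted p under 0.05, against 20.6% of all genes. Values in heart varied less for Cyp4b1, at 2.56, 2.79, 2.24, 2.0, 2.0, 1.94, 1.88 and 2.16, and for Cyp2d22, at 3.56, 3.77, 3.08, 3.19, 3.14, 2.98, 3.24 and 3.39. Both were nonetheless highest on the 1 hour and untreated arrays.

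**Figure D4:**
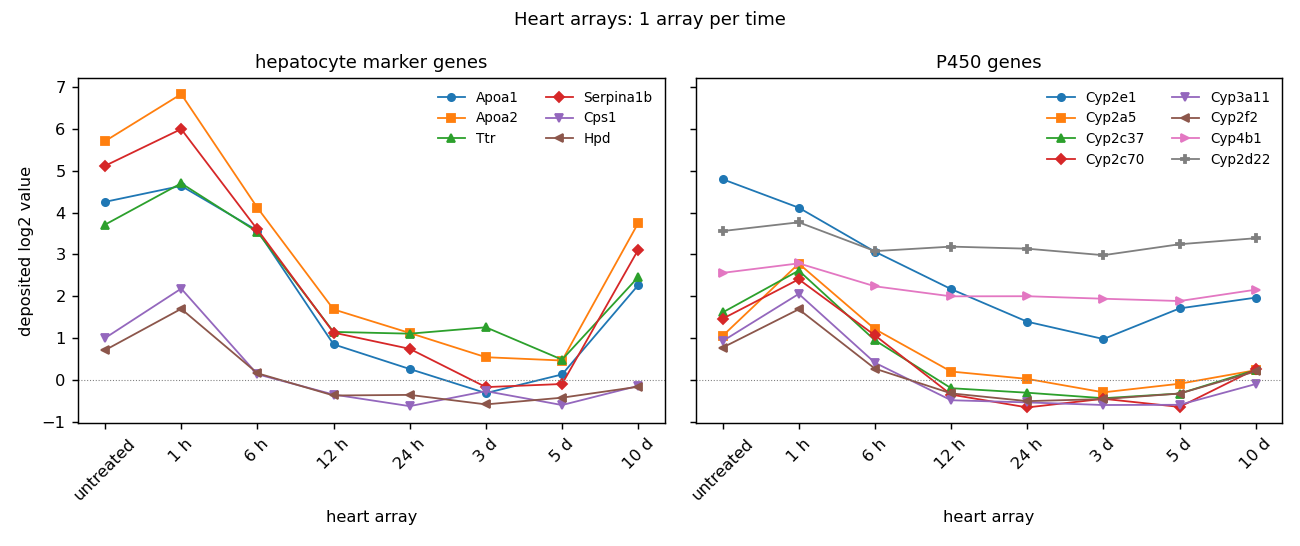
Deposited log2 values on the 8 heart arrays (1 per time, x axis not to scale) of 6 hepatocyte marker genes (left) and 8 P450 genes (right). Apoa1 and Cyp3a11 are highest on the 1 hour array and near or below 1 at 12 hours to 5 days, whereas Cyp2d22 stays between 2.98 and 3.77.

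In brain, treated against untreated gave 0 calls among the 39 genes, against 0.0% of all genes, and 0 with an unadjusted p under 0.05 in limma, against 1.38%. Cyp2j9 read 3.26, 3.45, 3.48, 3.45, 3.60, 3.24, 3.77 and 3.14, a treated difference of 0.18 ± 0.22. The values of the treated arrays lay on both sides of the untreated one. Cyp2e1 was above the median on the 24 hour and 10 day brain arrays alone, at 0.55 and 0.87. Apoa1 was also highest on those brain arrays, at 1.63 and 1.30 against -0.11 to 0.35 on the others, and its part was not tested. The F test of whether the treated difference varied between tissues called 0 of the 39 genes, against 0.0274% of all genes, and 1, Cyp2e1, had an unadjusted p under 0.05 in limma.

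The tested partners of the P450 enzymes were also higher in liver. Of 6 partners listed, Por and Pgrmc2 were not among the named genes and were not measured here. The 4 tested electron transfer and heme-binding partners, Cyb5a, Cyb5b, Cyb5r3 and Pgrmc1, were all called higher in liver, by 3.10, 1.58, 3.07 and 0.82 over brain and by 2.60, 2.60, 2.35 and 2.41 over heart. Of all genes tested, 28.9% were called higher and 43.8% lower than in brain, and 23.9% higher and 38.9% lower than in heart. Among 9 receptors and liver transcription factors, 9 were higher than in brain, and 8 were higher and 1 lower than in heart. Of these Hnf4a was higher by 5.30 and 5.05, and the CAR gene Nr1i3 by 4.89 and 4.56. Of 8 heme synthesis and breakdown genes 5 were higher than in brain, and 1 was higher and 3 lower than in heart. Their share lower than in heart was near that of all genes. Among 13 tested P450 genes of other families, 9 were higher and 1 lower than in brain, and 8 higher and 0 lower than in heart. Cyp7a1, the rate-limiting enzyme of bile acid synthesis, was higher by 7.26 ± 0.60 and 6.84 ± 0.67.

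The circadian factors tested were 2 of Dbp, Tef and Hlf. Beside the shares given above, 0 were higher and 2 lower than in brain, and 0 higher and 1 lower than in heart. In treated against untreated liver 0 genes of these 5 lists were called. Cyp7a1 read 4.88, 5.16, 8.54, 8.62, 9.40, 5.04, 5.25 and 4.55 as deposited and 5.22, 5.79, 7.44, 7.66, 7.96, 5.76, 5.39 and 5.07 after quantile normalization. Cyp7a1 stayed high at 6, 12 and 24 hours on both scales. Cyp2e1 did not, but it is among the brightest liver genes, which quantile normalization holds near fixed levels. Its SD over the liver arrays was 1.23 as deposited and 0.12 after quantile normalization, so the 2 genes cannot be compared in this respect. Alas1, the first enzyme of heme synthesis, read 7.21, 8.10, 8.22, 8.33, 8.16, 7.83, 8.85 and 6.89 after quantile normalization. Its lowest values were on the 10 day and untreated arrays. The circadian factor Dbp read 3.25, 2.36, 4.42, 4.93, 5.55, 5.75, 6.12 and 1.98 on that scale. Its order over the arrays differed from that of Cyp7a1, with high values at 3 and 5 days and low values at 1 hour and 10 days.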

How the data were processed

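Expression was measured in brain, heart and liver on 24 Illumina bead arrays from biotinylated cRNA, per the labels. The deposited log2 values were used as they stand, with the base taken as 2. Software, background correction and normalization: not given in the sources used here. Each array was found centred near 0, with spread equalised within a tissue. The number of arrays, 1 per tissue and time, limits the precision. A second deposited table, of intensities, has 24 value columns that match no label and was not used here.

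Probes were named from the platform annotation: 23141 of 25697 had 1 symbol, and the other 2556 did not and were left out. Linear models were fitted with limma 3.58.1 (lmFit and eBayes, two-sided) in R 4.3.3 to all 10934 genes tested, with Benjamini-Hochberg adjustment and a call at 0.05, and were tested on simulated data. Tissue comparisons took time as a block; the other comparisons used 1 tissue's arrays, and the F test used all 24. Quantile normalization used limma, within a tissue or over all arrays. Other alternatives were no filter, averaging the probes of each gene, robust eBayes with a trended variance, no time block, 1 spread shared by all 24 arrays, and leaving out each time.

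Genes were named by rule: up to 4 per subfamily by excess in liver, up to 5 each way by treated change, up to 4 each way by time trend, up to 8 higher outside liver by 1.5-fold, and the 4 most moved by scale. Cyp2b23, Cyp2c29, Cyp2d22, Cyp4f18 and genes named within small counts were chosen after their values were seen. The genes and lists were chosen with earlier results of these data known.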

Additional observations from a re-analysis of the deposited data

Results flagged for a closer look

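Among 78 sets of 8 arrays of a tissue, 3 held a value far from the other 7, where chance gives about 1 in 20. The sets were the tested genes named by rule in liver on 2 scales, and a few genes in heart and brain as deposited. All 3 were on the 5 day liver array after quantile normalization. Cyp2d10 read 8.44 there, above the 7.59 to 7.99 of the others. Cyp2f2, which oxidises naphthalene and marks hepatocytes near the portal vein, read 7.04, below 7.55 to 7.81. Cyp4f13 read 6.41, above 4.84 to 5.58. Markers of some other cells, though not of cholangiocytes, were lowest on that array as deposited. There 5 Kupffer cell and macrophage markers summed to 3.74, against 6.94 to 10.7 on the others. The sum of 4 endothelial markers was 3.22, against 4.63 to 5.55. Of these markers 4 of 5 and 4 of 4 were above the median there, and Cd5l was below it on all 8 arrays. Their part was not tested.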

How the results depend on the processing

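Of 258 recomputed counts and medians, 242 kept their direction and stayed within 1.5-fold of the main value. Many of these are counts of 0 called genes, from fits that mostly called few or no genes of the whole array. Such counts could hardly change, so the total says little about how stable the results are. Alternatives chosen after seeing the data are marked with an asterisk. Liver against heart gave 2 lower genes in place of 4 with the 12 hour to 5 day arrays alone*. Heart against brain gave 48 higher without the filter and 14 with those arrays alone*, in place of 30, and 3 lower in place of 5 with quantile normalization over 24 arrays; leaving out single times gave 28 to 32 higher. Leaving out single times gave 0 to 13 genes higher at 6 and 12 hours, with 13 without 24 hours, and quantile normalization within liver without that array gave 3 lower*. Summed over times, 67 cases at least 2-fold higher became 18 and 16 with quantile normalization over 24 arrays and within tissue, and 1 lower case became 4, 6, and 33 with the mean of the other 7 liver arrays as reference. The median treated change of 0.47 became 0.0198 and 0.0277 under these normalizations, 0.0277 with a shared spread as well*, 0.26 without the filter (which adds 18 genes), -0.0185 without the 6, 12 and 24 hour arrays*, and 0.33 to 0.56 leaving out single times. Apart from construction, causes were not tested.

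Of 1525 recomputed single-gene values, 13 changed sign. Treated against untreated: Cyp4a31 -0.27 to 0.00630 leaving out single times, Cyp4f16 0.0319 with mean probes, and Cyp3a11 -0.0185 and Cyp2c70 -0.19 without the 6, 12 and 24 hour arrays*. Slopes: Cyp2b10 -0.19 to 0.13, Cyp2b13 -0.16 to 0.13 and Cyp2d9 -0.64 to 0.0314 leaving out single times. At 6 and 12 hours: Cyp2j9 -0.69 to 0.0228, Cyp4b1 -0.32 to 0.0483 and Cyp2g1 -0.47 to 0.20 likewise, and Cyp2g1 0.26 with mean probes. In brain, Cyp2d22 ran from -0.00791 to 0.0566. None of these was called.

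Leaving out an untreated array allows no treated comparison. No paired analysis was possible because the labels give no replicate numbers that pair animals. The tissue comparisons took time as a block instead, and without that block heart against brain gave 31 higher in place of 30 and the other tissue counts did not change.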
